A study of Rattus norvegicus with 19 samples.

Results

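Oxidative phosphorylation subunits were taken as the genes whose array symbol begins with Nduf, Uqcr, Cox4 to Cox8 or Atp5, or is one of Sdha to Sdhd, each read from its probe set with the highest mean. The array named 86 such genes among 14217. Grouped by symbol alone, 36 fell under complex I, 6 under its assembly factors, 4 under complex II, 7 under complex III, 17 under complex IV and 16 under complex V. Ndufa4 and Ndufa4l2 were thus counted under complex I by name only, and their place in it was not checked. A log2 signal above 4 on at least 2 arrays of a set was required for testing, and 80 of the 86 passed in set 1, 79 in set 2, 78 in both and 5 in neither.

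The samples were somatosensory cortex of adult male Wistar rats, perfused with artificial cerebrospinal fluid carrying an agent, and the study, by its title, linked opening of the blood-brain barrier with epileptogenesis. In set 1 the agent was the bile salt deoxycholate (DOC, 2 mM, which opens the barrier) for 7, 24 or 48 h, bovine serum albumin (0.1 mM) for 8, 24 or 48 h, or TGF-Beta1 (10 ng/ml) for 8, 24 or 48 h, with 1 array each, and 1 sham-operated rat at 24 h. In set 2, all at 24 h, 3 rats received albumin at 0.1 mM, 4 received albumin with both SB431542, which blocks the kinase of TGF-BetaR1, at 100 µM and an antibody to TGF-BetaR2 at 50 µg/ml, and 2 were sham-operated. The albumin concentration under the blockers is not stated in their labels. The sham labels say only that the animals were operated on, and do not mention perfusion.

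Complexes I to IV pass electrons from NADH and succinate to oxygen, and complexes I, III and IV pump protons out of the mitochondrial matrix as they do so. Complex V, the ATP synthase, uses the proton gradient to make ATP, and neurons draw most of their ATP from this chain. The nuclear genes for its subunits share promoter sites for the activators NRF1, GABPA and YY1, and some of them have a second copy that muscle or hypoxic tissue uses.

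Promoters are shown for 1 such pair, the ubiquitous Cox8a and the muscle-type Cox8b, and for Cox6a2, the member whose signal varied most over both sets. They come from RefSeq (rat assembly GRCr8) and run from 250 bases before to 50 bases after the gene's start, 5′ to 3′ on the gene's strand. Capitals mark ACTTCCGG, the reverse complement of the ETS family (GABPA) letters CCGGAAGT.
Cox8a, chr1:213833574-213833873, minus strand: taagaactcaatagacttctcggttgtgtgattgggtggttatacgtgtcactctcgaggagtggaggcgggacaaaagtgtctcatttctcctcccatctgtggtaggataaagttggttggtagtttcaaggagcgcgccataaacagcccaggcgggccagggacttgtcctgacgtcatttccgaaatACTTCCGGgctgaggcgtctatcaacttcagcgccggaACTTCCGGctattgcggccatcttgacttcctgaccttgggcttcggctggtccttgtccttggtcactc
Cox8b, chr1:205408224-205408523, minus strand: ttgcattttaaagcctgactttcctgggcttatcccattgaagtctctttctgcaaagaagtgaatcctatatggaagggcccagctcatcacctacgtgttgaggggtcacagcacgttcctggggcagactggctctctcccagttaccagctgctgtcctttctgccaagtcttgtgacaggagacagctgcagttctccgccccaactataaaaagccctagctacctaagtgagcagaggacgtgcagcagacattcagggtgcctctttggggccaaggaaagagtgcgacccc
Cox6a2, chr1:192219667-192219966, minus strand: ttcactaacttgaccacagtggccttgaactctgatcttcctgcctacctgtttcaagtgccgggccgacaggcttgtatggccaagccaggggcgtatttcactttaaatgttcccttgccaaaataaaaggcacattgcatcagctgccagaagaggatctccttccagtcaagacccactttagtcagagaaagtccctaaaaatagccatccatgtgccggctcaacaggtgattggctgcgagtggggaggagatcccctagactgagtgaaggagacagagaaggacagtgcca
The Cox8a promoter held these letters at 2 places, 58 and 20 bases before the start, and the other two held them nowhere. RefSeq promoters were matched for 78 of the 86 genes. Searched on both strands, with overlaps allowed, the NRF1 letters GCGCANGCG stood in 24.4% of the 78 promoters, against 5.80% of all 33469 promoters. The YY1 letters AAGATGGCG stood in 14.1% against 1.73%, CCGGAAGT in 10.3% against 3.81%, and the hypoxia element core ACGTG in 25.6% against 19.3%. The members' promoters had a median GC content of 56.0%, against 51.7% for all promoters. A match to letters is not a binding site.

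Signals are the deposited log2 values. Set 2 signals of most members lay above those of set 1, and no array joins the sets, so differences were taken within a set. All 13 listed neuronal markers passed the filter in both sets, with Snap25 between 14.23 and 15.34 on the 19 arrays. Albumin replicate 2 of set 2 stood apart: its median correlation with the other arrays of its set was 0.935, against 0.970 to 0.986 for the other 8 arrays, and its neuronal markers had a median of -0.46 relative to the shams, against 0.14 and -0.04 on the other 2 albumin arrays. Counts and medians by complex, and several members, are also given without it. In set 1 each agent and time has 1 array and the sham is 1 rat, so a test there compares agents over 3 times, and the sham's own spread is assumed.

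Across both sets these genes varied little. The range of a member over the arrays had a median of 0.43 in set 1 and 0.35 in set 2, against 0.85 and 0.72 for all genes tested. Only 4 of 80 members in set 1 and 2 of 79 in set 2 ranged over more than 1 log2 unit, against 38.1% and 31.1% of all genes. All genes here and below were not matched to the members by signal level, and the part of signal level in these gaps was not tested. The widest were Cox6a2, Ndufaf1 and Ndufv3 in set 1 and Cox6a2, Ndufaf4 and Cox5a in set 2.

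**Figure D1:**
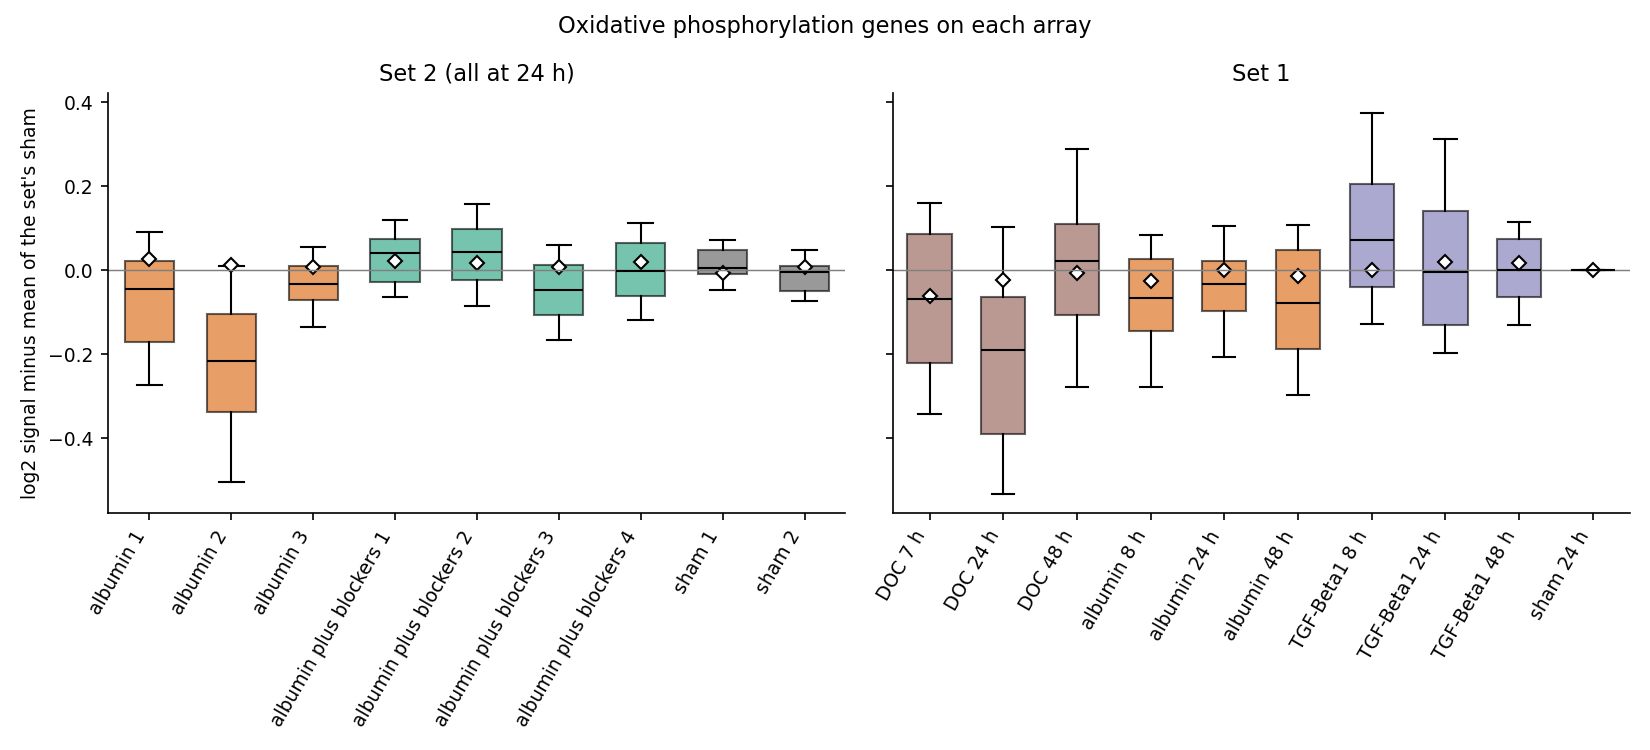
Log2 signal of the oxidative phosphorylation genes on each array, minus the mean of the sham arrays of the same set (79 genes in set 2, 80 in set 1). Boxes span the quartiles with the median as a line, whiskers reach to the first and last deciles, and open diamonds mark the median of all genes tested on that array. The lowest medians are those of albumin replicate 2 in set 2 (-0.22) and DOC at 24 h in set 1 (-0.19).

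Set 2 asked what albumin does to the cortex within a day. No member changed by limma at an adjusted p under 0.05 (0 of 79, against 1.33% of all genes), and 3 members (3.80%), all lower, had an unadjusted p under 0.05, against 21.4% of all genes. The differences were small and ran mostly one way: 69 of 79 members lay below sham, with a median log2 difference of -0.10, while 47.7% of all genes lay below and their median was 0.02. In 28 of 79 members (35.4%) all 3 albumin arrays lay below both shams, against 19.2% of all genes, and in none did all 3 lie above, against 22.2% of all genes. The 95% interval of the difference lay within 1 log2 unit of 0 for 78 of 79 members, and within 0.5 for 63. Beside these differences stand the cell markers. The neuronal list is given above, and the neutrophil list (3 of 5 genes measured) had medians of 4.81, 1.23 and 6.87 relative to sham on albumin replicates 1, 2 and 3, where the shams themselves stood at -1.22 and 1.22. All 8 listed meningeal genes passed the filter, with medians of -2.31, -3.04 and -1.87 on these arrays. The part of these cell types in the result was not tested. In bulk cortex fewer cells of a type and less RNA per cell cannot be told apart.

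The shift was largest on 1 array. The median of the members relative to the shams was -0.05, -0.22 and -0.03 on albumin replicates 1, 2 and 3, and 70 of 79 members lay below sham on replicate 2, against 54 and 56 on replicates 1 and 3. On blocker replicates 1 to 4 the median was 0.04, 0.04, -0.05 and -0.001, with 26, 28, 56 and 40 members below sham. Blocker replicate 3 thus stood as low as albumin replicates 1 and 3. The SD of this median between arrays of a group was 0.07 in set 2. Without albumin replicate 2, 56 of 79 members lay below sham and the median was -0.04. The members with both remaining albumin arrays below both shams then numbered 30 of 79 (38.0%), against 25.0% of all genes. By complex, the members below sham without it were 29 of 36 for complex I (median -0.06), 3 of 5 for its assembly factors (-0.09), 4 of 4 for complex II (-0.10), 6 of 7 for complex III (-0.08), 3 of 11 for complex IV (0.02) and 11 of 16 for complex V (-0.03). The complex IV median thus changed sign, and the other 5 stayed below 0. With replicate 2 kept and each array centred on its median, all 3 albumin arrays lay below both shams in 50 of 79 members (63.3%). The share of all genes was then 27.4%.

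In complex I, which takes electrons from NADH, 34 of the 36 genes grouped there by symbol lay below sham, with a median difference of -0.11. Ndufb2, an accessory subunit of the membrane arm, read 11.95, 11.67 and 12.08 on the albumin arrays, against 12.32 and 12.20 on the shams (difference -0.36, SE 0.13, limma adjusted p = 0.182). All 3 albumin arrays lay below both shams. Ndufa6, an accessory subunit that binds the acyl carrier protein, read 11.07, 10.72 and 11.15 under albumin, against 11.37 and 11.30 in sham (-0.36, SE 0.14, adjusted p = 0.196). These groups did not overlap either, and replicate 2 was the lowest in both genes. Without it the differences were -0.24 for Ndufb2 (adjusted p = 0.227) and -0.23 for Ndufa6 (adjusted p = 0.226). Ndufb11, another membrane arm subunit, differed by -0.26 (adjusted p = 0.241), and Ndufs7, a core subunit carrying an iron-sulphur cluster near the quinone site, by -0.37 (adjusted p = 0.243), or by -0.20 and -0.22 without replicate 2. The large core subunit Ndufs1 differed by -0.11 and the core subunit Ndufv2 by -0.004, both with intervals within 0.5 log2 units of 0. Among the assembly factors, which help to build complex I and are not part of it, 3 of 5 lay below sham. Ndufaf4 read 9.96, 11.07 and 10.30 under albumin, against 10.03 and 10.21 in sham, so that only replicates 2 and 3 lay above the shams. Its difference was 0.32 with all arrays, 0.57 without replicate 1 and 0.01 without replicate 2.

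Complex II, which oxidises succinate, had all 4 members below sham, with a median of -0.15. Sdhb, its iron-sulphur subunit, averaged 12.46 ± 0.11 under albumin (SD, n = 3) and 12.59 ± 0.01 in sham (SD, n = 2), a difference of -0.13 (adjusted p = 0.483). Sdha, the flavoprotein, differed by -0.11. Without replicate 2 these were -0.08 for Sdhb and -0.03 for Sdha. In complex III, which carries electrons on to cytochrome c, 6 of 7 lay below with a median of -0.11. The exception was Uqcrc1, a core protein of the complex, at 0.08, and the Rieske iron-sulphur protein Uqcrfs1 was at -0.10.

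In complex IV, cytochrome oxidase, 8 of 11 lay below and the median was -0.05. Cox4i1, its ubiquitous regulatory subunit, read 14.36, 14.35 and 14.46 under albumin, against 14.46 and 14.46 in sham (-0.07, 95% interval -0.28 to 0.14). Cox8a was at -0.09 and Cox6a1 at 0.02, and both were at 0.04 without replicate 2. Cox5a, a subunit near the matrix face, was at -0.44 (adjusted p = 0.272) on the probe set that names it alone, while a probe set shared with LOC100361008 gave 0.11. In the ATP synthase, 14 of 16 lay below with a median of -0.08. Its catalytic subunit Atp5f1b was at 0.07 and its partner Atp5f1a at -0.08. The small subunit Atp5mpl read 11.60, 11.48 and 11.87 under albumin, against a mean of 11.95 ± 0.07 in sham (SD, n = 2; -0.30, SE 0.13, adjusted p = 0.231). The lower sham, at 11.90, lay above all 3 albumin arrays. Without replicate 2 its difference was -0.21 (adjusted p = 0.344).

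**Figure D2:**
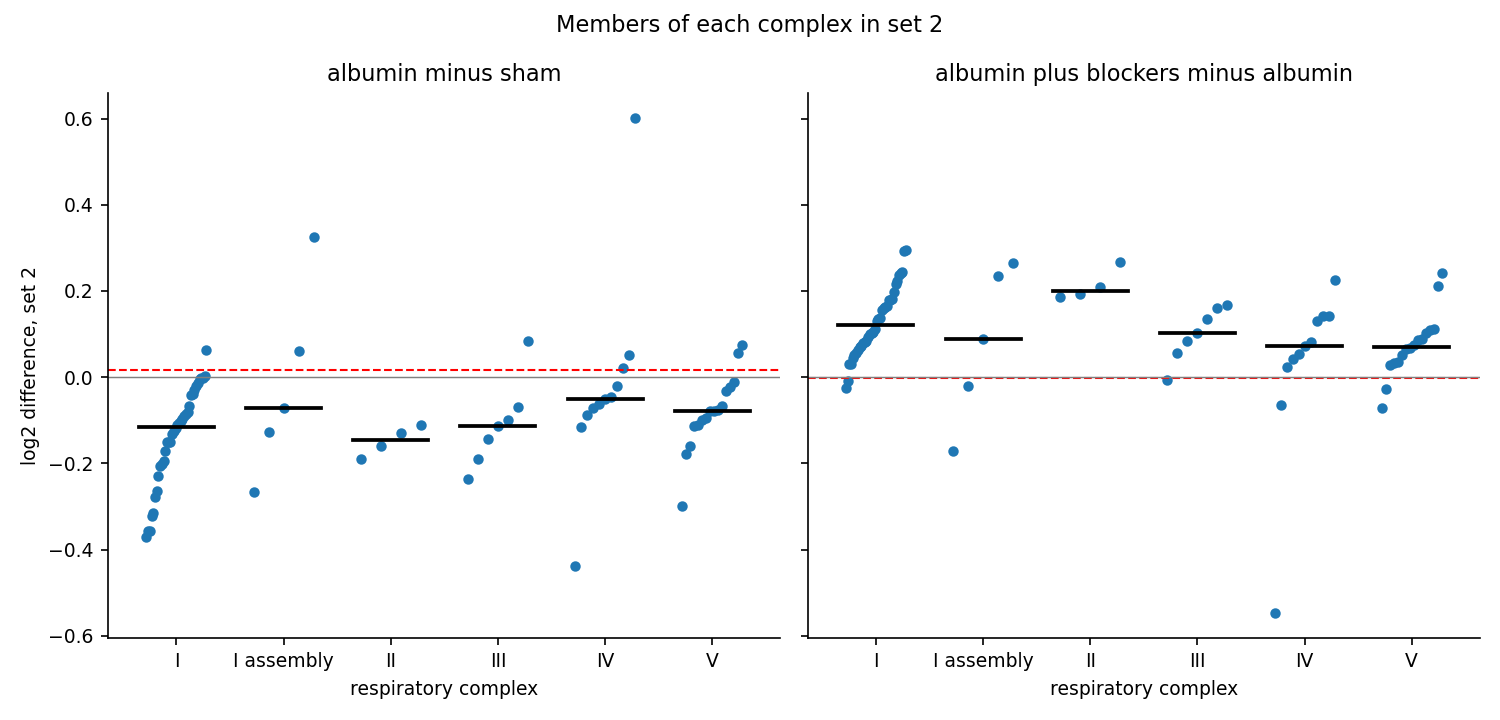
Log2 differences in set 2 for every member tested, by complex (I, its assembly factors, II, III, IV and V): albumin (n = 3) minus sham (n = 2) on the left and albumin plus blockers (n = 4) minus albumin (n = 3) on the right. Black bars are medians of a complex and the red dashed line is the median of all genes tested. The points at 0.60 on the left and -0.55 on the right are Cox6a2. The same albumin arrays enter both panels.

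The blocker group asked which effects of albumin need TGF-Beta receptors. Against albumin, 0 of 79 members passed limma's adjusted p (0.0194% of all genes did, 2 in number), with 3 (3.80%), all higher, at an unadjusted p under 0.05, against 16.6% of all genes. Of the members, 70 of 79 lay above albumin with a median of 0.10, while 50.6% of all genes lay below. In 11 of 79 (13.9%) all 4 blocker arrays lay above all 3 albumin arrays, against 7.32% of all genes, and none lay wholly below, against 8.71%. These differences share the albumin arrays with those from sham, so a low albumin array moves both in opposite directions. Without albumin replicate 2 the median was 0.06, with 66 members above albumin, and the medians of the complexes lay between 0.02 for complex V and 0.15 for complex II.

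Complex II had the highest median of the complexes, 0.20, with all 4 members above albumin. Sdhc, a membrane anchor of the complex, read 11.74, 11.66, 11.57 and 11.72 with blockers, against 11.28, 11.38 and 11.55 with albumin alone (0.27, SE 0.09, adjusted p = 0.234). The 4 blocker arrays lay above the 3 albumin arrays, with a gap of 0.02 between the nearest pair. Sdhd, the other anchor, differed by 0.21 (adjusted p = 0.288), Sdhb by 0.19 (0.311) and Sdha by 0.19 (0.351). Ndufa6 read 11.29, 11.34, 11.17 and 11.30 with blockers, all above the 3 albumin values given earlier (0.30, adjusted p = 0.273). Atp5mpl differed by 0.24 (adjusted p = 0.307). Without albumin replicate 2 the differences were 0.26 for Sdhc, 0.16 for Sdhd, 0.14 for Sdhb and 0.11 for Sdha. They were then 0.16 for Ndufa6 (adjusted p = 0.419) and 0.15 for Atp5mpl, so these 2 and Sdha moved by more than 1.5 times.

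Between blockers and sham, 0 of 79 members passed, as did 0% of all genes, with 0 members and 4.30% of all genes at an unadjusted p under 0.05 (limma). The median difference was 0.01, with 33 of 79 members below sham, and it turned to -0.02, with 54 below, when each array was centred on its median. Before centring, all genes had a median of 0.02, with 45.4% below sham. All 4 blocker arrays lay above both shams in 10 members (12.7%), against 11.6% of all genes, and below both in 5 (6.33%), against 8.32%. With centred arrays these were 3 above (3.80%, against 8.16% of all genes) and 13 below (16.5%, against 12.9%). The 95% interval lay within 0.5 log2 units of 0 for 74 of 79 members. Ndufb7 (0.20) and Ndufb3 (0.18), both accessory subunits of complex I, had the smallest p above sham, and Cox5a (-0.30, or -0.14 without blocker replicate 2) and Ndufb11 (-0.16) below it. The 14 fixed members that were measured lay between -0.05 and 0.08.

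**Figure D3:**
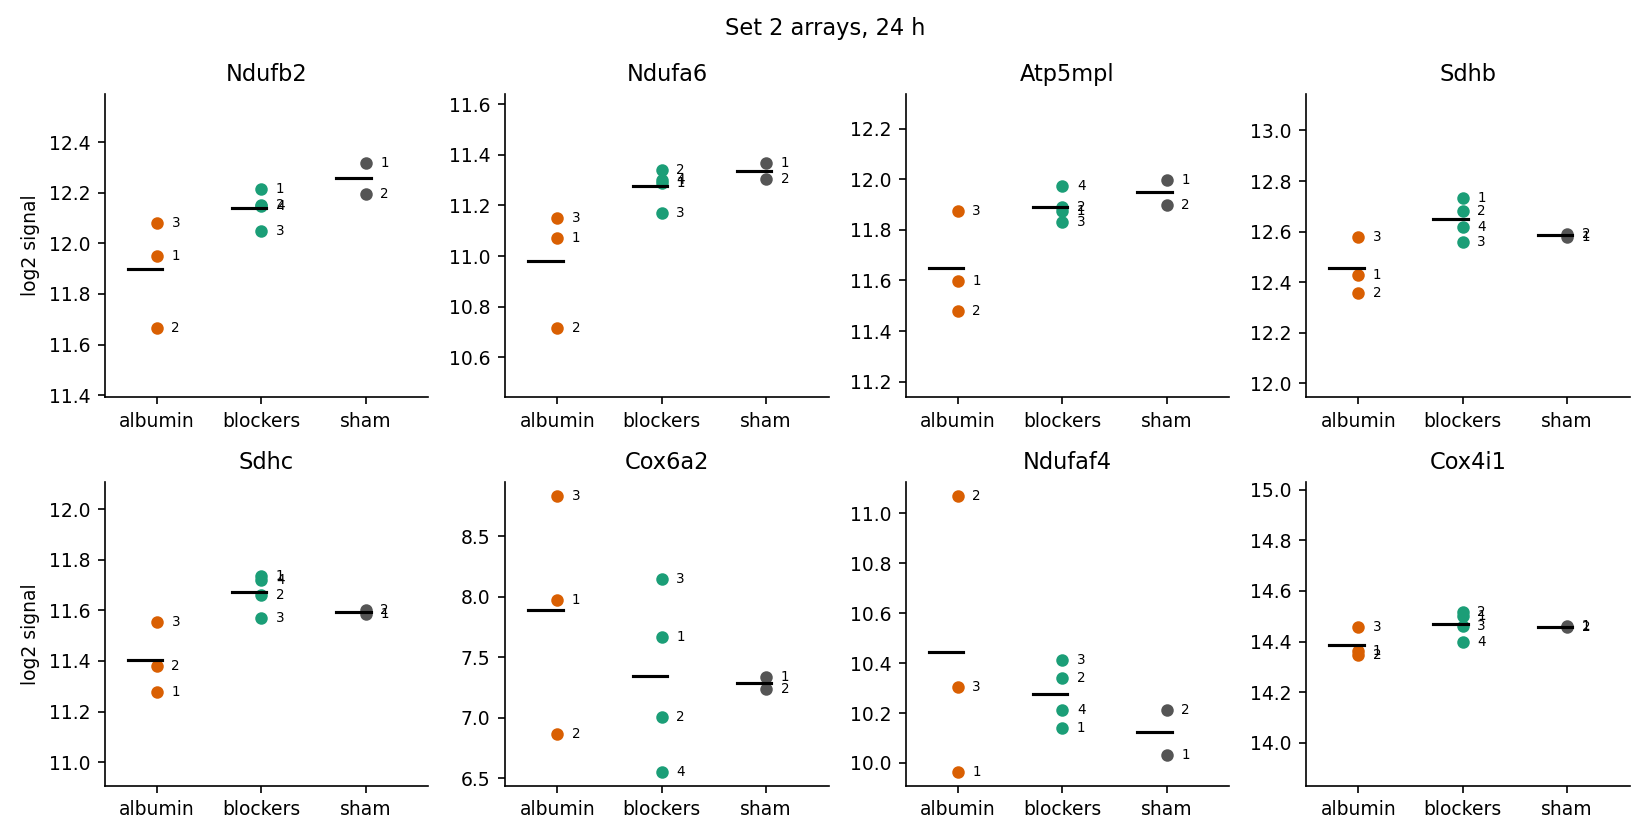
Log2 signal of 8 members on each array of set 2: albumin (n = 3), albumin plus blockers ("blockers", n = 4) and sham (n = 2). Points carry the replicate number and bars are group means. Each panel has its own axis of at least 1.2 log2 units. In Ndufb2, Ndufa6, Atp5mpl and Sdhc the albumin arrays lie below both shams, while Cox6a2 and Ndufaf4 spread widely within albumin.

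Set 1 followed 3 agents over 2 days against 1 sham. Against it, 0 of 80 members passed for DOC (0.469% of all genes passed), for albumin (0.369%) or for TGF-Beta1 (0%). At an unadjusted p under 0.05 limma had 4 members for DOC (5%, against 18.7% of all genes), 1 for albumin (1.25%, against 11.9%) and 0 for TGF-Beta1 (0%, against 7.49%). With DOC, 57 of 80 members lay below sham (median -0.09), with albumin 55 (median -0.05) and with TGF-Beta1 36 (median 0.01). All genes had medians of -0.03, -0.02 and 0.01, with 52.8%, 51.9% and 47.4% below sham. The TGF-Beta1 median turned to -0.005 after centring. The albumin median was -0.03 without the 8 h array, -0.10 without the 24 h array and -0.02 without the 48 h array, with 50, 64 and 47 members below sham. The 3 comparisons share the lone sham. By array, the median of the members stood at -0.07, -0.19 and 0.02 for DOC at 7, 24 and 48 h, at -0.07, -0.03 and -0.08 for albumin at 8, 24 and 48 h, and at 0.07, -0.004 and 0.001 for TGF-Beta1 at 8, 24 and 48 h. The DOC array at 24 h had 67 of 80 members below sham. Without it 48 of 80 lay below and the DOC median was -0.03, and without the 48 h array the DOC median was -0.14. Its neuronal markers had a median of -0.04 relative to sham.

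The smallest p under DOC belonged to 2 core subunits of the arm of complex I that passes electrons to quinone. Ndufs7 read 10.58, 10.63 and 10.36 at 7, 24 and 48 h of DOC, 10.69, 10.84 and 10.58 at 8, 24 and 48 h of albumin, and 11.23, 11.12 and 10.95 at the same times of TGF-Beta1, against 11.07 in sham. All 3 DOC and all 3 albumin values lay below the sham, while the TGF-Beta1 values lay on both sides of it. The differences were -0.55 for DOC (SE 0.16, limma adjusted p = 0.148) and -0.37 for albumin (adjusted p = 0.421). Ndufs8, a neighbouring core subunit that also carries iron-sulphur clusters, read 9.02, 9.03 and 9.19 with DOC, 9.16, 9.51 and 9.19 with albumin and 9.96, 9.76 and 9.72 with TGF-Beta1, against 9.80 in sham. Its differences were -0.72 for DOC (adjusted p = 0.154) and -0.52 for albumin (adjusted p = 0.401). Ndufb10 (-0.45) and the core subunit Ndufs3 (-0.49) came next among members below sham under DOC. Among members above sham under DOC were Ndufaf7, an assembly factor, at 0.46 (adjusted p = 0.259), and Ndufaf1, an early assembly factor, at 0.90 (adjusted p = 0.351). Ndufaf1 lay near the filter, with 5.38 at 48 h of DOC and 3.75 in sham, and its difference was 0.42 without that DOC array. For TGF-Beta1 the smallest p belonged to Ndufa7 (0.31), Ndufa11 (0.32), Sdha (-0.27) and Ndufs1 (-0.21), with adjusted p of 0.868 or more. A second, dimmer probe set of Ndufa7 gave -0.52, and the mean of its probe sets gave -0.10, so its direction depends on the probe set.

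**Figure D4:**
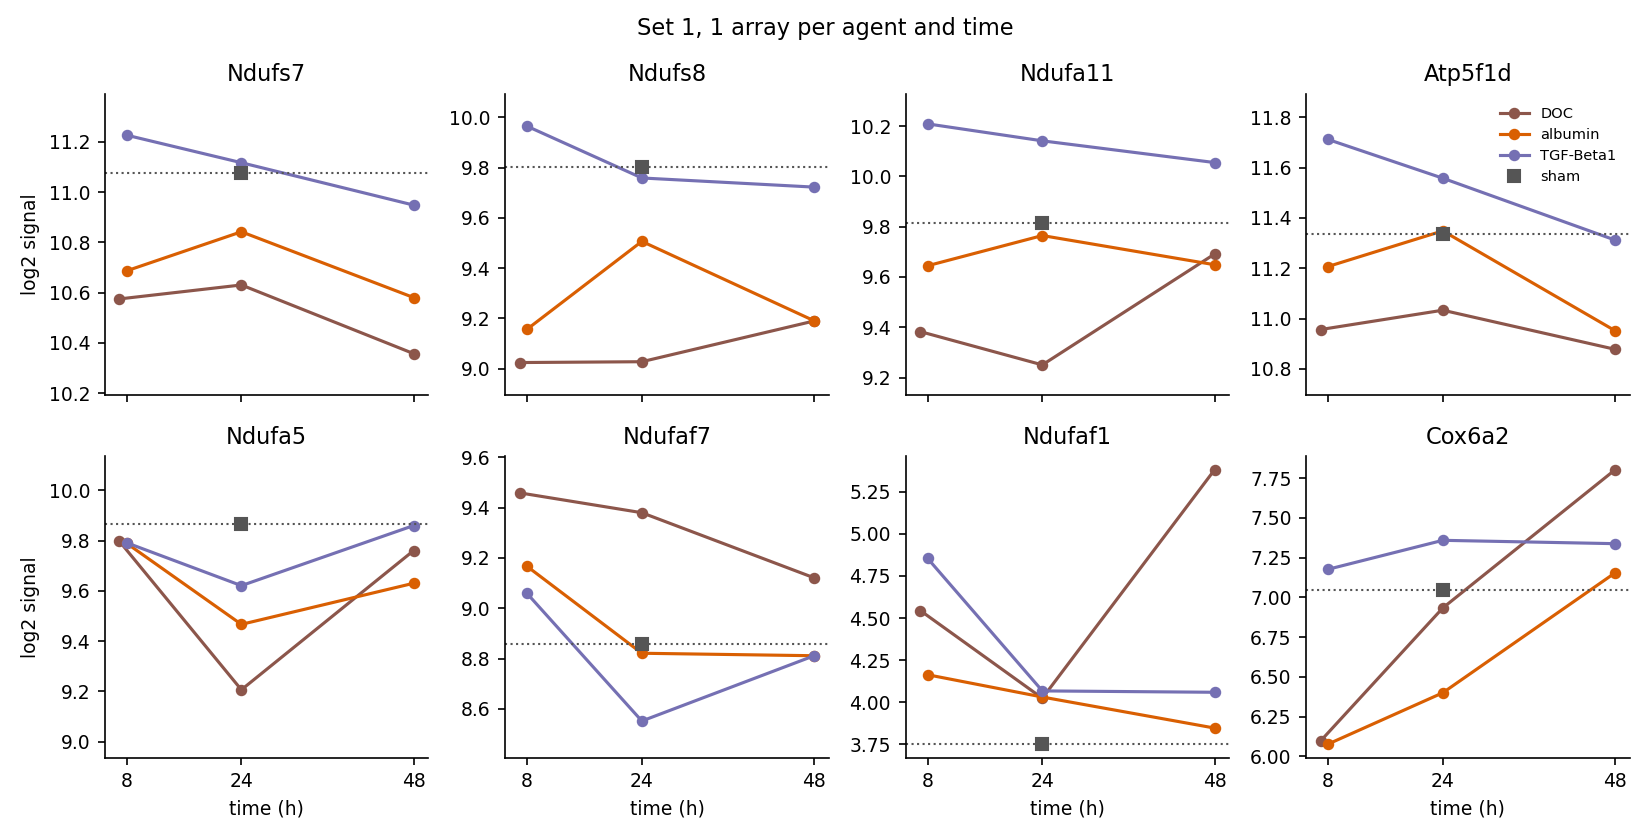
Log2 signal of 8 members over time in set 1 (hours on the horizontal axis), 1 array per point: DOC at 7, 24 and 48 h, albumin and TGF-Beta1 at 8, 24 and 48 h, and the lone sham at 24 h as a square with a dotted line at its level. Each panel has its own axis of at least 1.2 log2 units. TGF-Beta1 lies above DOC at all 3 times in Ndufs7, Ndufs8, Ndufa11 and Atp5f1d.

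The agents were also set against each other over the 9 treated arrays. For TGF-Beta1 against DOC, 0 of 80 members passed (0.0299% of all genes did), and 17 (21.25%) had an unadjusted p under 0.05 by limma, a share close to the 20.8% of all genes. Of the 17, 16 were on the side of TGF-Beta1, as were 1435 of the 2085 genes at that p. Members lay above DOC in 58 of 80 cases with a median of 0.10, while 42.9% of all genes lay below DOC and their median was 0.05. The members' median was 0.02 without the DOC array at 24 h, 0.17 without that at 48 h and 0.05 with centred arrays. The smallest adjusted p, 0.0975, was shared by Ndufs7 (0.58), Ndufs8 (0.73), Ndufa11 (0.69), an accessory subunit of complex I, and Atp5f1d (0.57), the delta subunit of the ATP synthase's central stalk. Atp5f1d read 11.71, 11.56 and 11.31 with TGF-Beta1, against 10.96, 11.03 and 10.88 with DOC at 7, 24 and 48 h. Every TGF-Beta1 value lay above every DOC value. Ndufaf7 ran the other way: 9.06, 8.55 and 8.81 with TGF-Beta1, against 9.46, 9.38 and 9.12 with DOC (-0.51, adjusted p = 0.129). Without the DOC array at 48 h, Ndufa11 passed the threshold (0.85, adjusted p = 0.0458), as did Ndufv3 on its brighter probe set. In that fit 179 of 10018 genes passed, against 3 with all 9 treated arrays.

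Against albumin, TGF-Beta1 gave 0 of 80 calls (0% of all genes), with 10 members (12.5%) and 8.75% of all genes at an unadjusted p under 0.05 (limma). Of the members 59 of 80 lay above albumin (median 0.07), while 44.4% of all genes lay below it and their median was 0.03. Atp5mpl (0.48), Ndufs8 (0.53), Ndufs7 (0.39) and Ndufv3 (0.60), a small subunit of the NADH-binding arm, had adjusted p of 0.493 to 0.498. A second, dimmer probe set of Ndufv3 gave differences from sham of 0.19 for TGF-Beta1, 0.17 for albumin and 0.04 for DOC. The probe set used gave 0.39, -0.21 and -0.27, so the gaps of Ndufv3 between agents depend on the probe set. For albumin against DOC, 0 of 80 passed (0.00998% of all genes, 1 gene), with 1 member (1.25%) and 7.48% of all genes at an unadjusted p under 0.05 by limma. The member was Ndufaf7, at -0.39 (adjusted p = 0.645). Members lay above DOC in 50 of 80 cases (median 0.03), while 45.1% of all genes lay below DOC and their median was 0.03. Without the DOC array at 24 h, 49 of 80 members lay below.

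Over time, taken across the 3 agents, no member passed between 24 h and 7/8 h (0 of 80, against 0.799% of all genes), between 48 and 24 h (0 of 80, against 1.41%) or between 48 h and 7/8 h (0 of 80, against 5.09%). Limma had 1, 2 and 1 members at an unadjusted p under 0.05 (1.25%, 2.5% and 1.25%), against 14.1%, 16.3% and 20.7% of all genes. At 24 h, 61 of 80 members lay below 7/8 h (median -0.05), against 45.3% of all genes (median 0.03). At 48 h 54 of 80 members lay above 24 h (median 0.07), while 51.4% of all genes lay below (median -0.01). Both shifts of the members turned without the DOC array at 24 h: 37 of 80 then lay below 7/8 h (median 0.01) and 46 of 80 lay below 24 h at 48 h (median -0.03). The shift from 24 to 48 h also turned without the DOC array at 48 h, with 46 of 80 below 24 h (median -0.02). Ndufa5, an accessory subunit of the matrix arm, fell most at 24 h among the complex I genes, while an assembly factor reached -0.48. Ndufa5 read 9.80, 9.21 and 9.76 at 7, 24 and 48 h of DOC, 9.79, 9.47 and 9.63 at 8, 24 and 48 h of albumin, and 9.79, 9.62 and 9.86 at those times of TGF-Beta1. The 24 h value was the lowest of the 3 for each agent, with a difference of -0.36 from 7/8 h (adjusted p = 0.283) and of 0.32 at 48 h from 24 h (adjusted p = 0.295).

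Cox6a2, the heart and skeletal muscle form of Cox6a that mouse parvalbumin interneurons also express, varied most. In set 1 it read 6.10, 6.93 and 7.80 at 7, 24 and 48 h of DOC, 6.08, 6.40 and 7.15 at 8, 24 and 48 h of albumin and 7.18, 7.36 and 7.34 at those times of TGF-Beta1, against 7.05 in sham. Its value at 48 h exceeded that at 7/8 h for all 3 agents, by 0.98 on average (SE 0.27, limma adjusted p = 0.0920), and by 1.32 without the TGF-Beta1 array at 48 h (adjusted p = 0.0438). In set 2 it read 7.97, 6.86 and 8.84 with albumin and 7.67, 7.00, 8.15 and 6.55 with blockers, against 7.34 and 7.24 in sham. Both treated groups reached above and below the shams, so set 2 set only wide limits on it: 0.60 for albumin against sham (95% interval -0.78 to 1.98) and -0.55 for blockers against albumin (-1.70 to 0.60). Without albumin replicate 2 these were 1.12 and -1.06, and without replicate 3 they were 0.13 and -0.07. Pvalb, the parvalbumin gene, read 11.29, 10.97 and 11.50 with albumin and 11.51, 11.74, 11.71 and 11.85 with blockers, against 11.68 and 11.77 in sham. Of the muscle list 12 of 14 genes were on the array. The 4 that passed the filter in both sets were Myh1 (13.43 to 14.57 on the 19 arrays), Acta1 (8.38 to 9.51), Tnnc2 (6.78 to 9.54) and Myh2 (4.24 to 6.76). In set 2 Tnnc2 read 8.23, 7.46 and 8.14 with albumin and 8.77, 9.15, 8.94 and 9.54 with blockers, against 9.34 and 9.20 in sham. In set 1 Tnnc2 read 9.19, 7.88 and 6.78 at 7, 24 and 48 h of DOC. Of these 4 genes only Tnnc2 is given by array, and in set 1 only for DOC. The 8 that passed the filter in neither set, among them Ckm and Mb, lay between 1.68 and 3.34. The part of muscle RNA in the Cox6a2 values was not tested.

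The other tissue-type copies were near the floor. Cox8b lay between 2.21 and 2.52 and Cox4i2, the hypoxia-linked form of Cox4, between 1.97 and 2.85 on the 19 arrays, and neither was tested. Cox7a1, the muscle form of Cox7a, exceeded 4 only at 24 h of TGF-Beta1 (4.43), and its counterpart Cox7a2 was read only by a probe set it shares with Cox7a2l2. Cox6b2 and Cox7b2, known from testis, stayed below 4 throughout. Ndufa4l2, the hypoxia-linked relative of Ndufa4, lay between 5.01 and 5.39 in set 2 and between 2.34 and 2.80 in set 1. Its difference from sham in set 2 was -0.08 for albumin and -0.003 for blockers. Ndufa4 itself was at -0.17 for albumin.

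Albumin at 24 h was measured in both sets. Of the 78 members tested in both, 47 lay below sham in both sets and 7 above in both, so 69.2% had the same sign, against 70.2% of all genes tested in both. Without albumin replicate 2 of set 2 the share was 60.3%, against 68.6% of all genes.

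Other genes of mitochondrial energy metabolism were mostly uncalled as well. Of the regulators of mitochondrial biogenesis 1 of 14 rose with albumin in set 2: Pprc1, a coactivator of the PGC-1 family, by 0.94 (SE 0.16, limma adjusted p = 0.0469), and 0 fell, while 1.33% of all genes were called. Its difference stayed between 0.79 and 1.02 on leaving out each array, but its adjusted p crossed the threshold. It was under 0.05 without albumin replicate 2 and between 0.0520 and 0.320 without any 1 of the other 8 arrays of the set, and it was 0.0546 with the arrays centred, 0.104 with a replicate block, 0.0657 with no filter and 0.186 with only the arrays of the 2 groups. None of 12 electron carriers and transporters, 13 citric acid cycle genes or 24 assembly factors of complexes II to V passed there, at that share of 1.33%. Of 12 genes of the hypoxia and mitophagy list only Pdk4, a kinase that shuts off pyruvate dehydrogenase, passed in any of the 12 comparisons. It fell by 2.50 at 24 h against 7/8 h (adjusted p = 0.0387) and by 2.80 at 48 h against 7/8 h (adjusted p = 0.00785) in set 1, where 0.799% and 5.09% of all genes were called. By the mean of all its probe sets these falls were smaller, -1.28 (adjusted p = 0.0499) and -1.43 (0.0115). The 24 h difference stayed between -2.87 and -2.13 on leaving out each array, while its call was lost on leaving out any 1 of 7 of the 9 treated arrays (adjusted p 0.0721 to 0.145), and the 48 h call held on leaving out each array in turn.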

How the data were processed

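Total RNA from rat cortex was hybridised as biotin-labelled cRNA to Affymetrix Rat Genome 230 2.0 arrays, 1 per sample. The values are the deposited log2 signals of 31099 probe sets, made by the authors with GCRMA per the submitters' processing notes (version not given in the sources used here). Probe sets naming 1 gene (20826) gave 14217 genes, each by its probe set of highest mean, and 7 probe sets shared by a member and another gene were left out of the tests. Genes above a log2 signal of 4 on at least 2 arrays of a set were tested: 10018 in set 1 and 10329 in set 2. No further normalization was applied, and the number of arrays limits the precision.

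Two-sided tests used limma 3.58.1 (R 4.3.3), lmFit and eBayes, with p-values adjusted by Benjamini-Hochberg across every gene tested in a set and a threshold of 0.05. Set 2 was fitted with its 3 groups. Set 1 was fitted with additive terms for agent and time, the lone sham being assumed to vary like the treated arrays. The fits were tested on simulated data. Tables and figures used Python 3.11.15, pandas 2.3.3, numpy 2.4.6 and matplotlib 3.10.9. P-values measure the spread between animals in set 2, per the labels. In set 1, without replicates, they rest on what the additive terms leave over. That mixes the spread between arrays with any effect of an agent that differs by time.

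Named members were, in each comparison, the 4 with the smallest p in each direction, 18 genes named in every comparison with sham and between the set 2 groups, and the 3 with the widest range per set. Ndufs7 in set 2 was added after its values were seen. The members and lists were chosen with earlier results of these data known. Alternatives were another prior, other filters, the mean of all probe sets of a gene, centred arrays, fewer or more arrays in the fit, no time term, a replicate block and leaving out each array.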

Additional observations from a re-analysis of the deposited data

Results flagged for a closer look

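Dixon's test set 4 members apart on 1 of the 4 arrays with albumin plus blockers, among 52 members and medians looked at. Chance does so in about 1 in 20 groups. Atp5mf, a small subunit of the ATP synthase, read 13.87 on array 1, against 13.76 to 13.78 on the other 3. Ndufv2 read 12.59 on array 2, against 12.47 to 12.49. Cox7a1 read 3.68 on array 4, against 3.34 to 3.35, and Cox8b read 2.51 on array 4, against 2.21 to 2.23, both below the log2 signal of 4 needed for testing.

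Ndufb1, a small membrane subunit of complex I, differed in direction between the sets under albumin. All 3 albumin arrays lay below both shams in set 2 (-0.029) and all 3 lay above the lone sham in set 1 (0.18). The difference between the sets was not tested.

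Probe sets that name 2 genes took no part in the comparisons. On the probe set shared by Cox5a and LOC100361008, all albumin arrays (difference 0.11) and all arrays with albumin plus blockers (0.091) lay above both shams, while the probe set naming Cox5a alone gave -0.44 and -0.30. On the probe set shared by Ndufa10 and Ndufa10l1, the 4 arrays with albumin plus blockers read 11.09 to 11.49, against 10.93 to 10.94 in sham, a difference of 0.37.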

How the results depend on the processing

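Of 1784 alternative values for 118 differences of named genes, 1740 kept their direction and their side of the threshold, 6 newly passed it, 20 no longer passed it (all Pprc1 or Pdk4) and 18 changed sign. A further 55 small differences of fixed members changed sign in 39 of 880 alternatives, none called. No member was called in set 2 except Cox6b2 without a filter on low values (1 member), where all its arrays lie near the floor. With all 19 arrays in 1 fit and a term for the set, the sham and albumin arrays of both sets entered together. Of 80 members 1 then passed for DOC (Ndufs7, -0.55, limma adjusted p = 0.0454), where 475 of 10018 genes were called. For albumin over both sets 1 of 80 passed (Ndufs7, -0.37, adjusted p = 0.0494), where 931 genes were called. Leaving out 1 array gave 0 to 1 calls for 48 h against 7/8 h. These were Cox5a (-0.69) without DOC at 48 h, where 303 of all genes were called, or Cox6a2 (1.32) without TGF-Beta1 at 48 h, where 208 were. On the probe set that Cox5a shares with LOC100361008, albumin read 12.89 at 8 h and 12.83 at 48 h. TGF-Beta1 read 12.94 and 13.07 there, so the fall of Cox5a depends on the probe set. For TGF-Beta1 against DOC, leaving out 1 array gave 0 to 2 calls, with 179 of all genes called without DOC at 48 h. The members' median then ranged from -0.028 to 0.108 at 48 h against 24 h and from 0.022 to 0.171 for TGF-Beta1 against DOC. After seeing the data, the counts of members without overlap were repeated. Those with all albumin arrays below sham numbered 28, against 19.2% of all genes, and 50 with centred arrays (63.3%, against 27.4%) or 28 to 43 on leaving out 1 array (35.4% to 54.4%, against 19.2% to 27.1%). Those with all blocker arrays above albumin numbered 11, against 7.32%, and 19 with centred arrays (24.1%, against 10.4%) or 11 to 27 on leaving out 1 array (13.9% to 34.2%, against 7.32% to 13.3%).

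These values changed sign. For albumin against sham in set 2, centred arrays gave -0.0036 for Atp5mc3 and -0.039 for Cox6a1. Leaving out 1 array there gave Ndufv2 from -0.086 to 0.063 (0.012 without albumin 3), Cox6a1 from -0.032 to 0.073, Cox8a from -0.174 to 0.041 and Atp5f1b from -0.0049 to 0.137. For blockers against albumin it gave Ndufaf4 from -0.412 to 0.142 and Atp5f1b from -0.137 to 0.0087. Cox6a2 ran from -0.215 to 0.317 for blockers against sham (-0.055 without blockers 1) and from -0.026 to 0.588 for TGF-Beta1 against sham. For DOC it was 0.41 with all 19 arrays and 0.18 without DOC at 7 h. For albumin it was 0.18 with all 19 arrays, where the albumin and sham arrays of both sets entered together. Ndufa7 under TGF-Beta1, 0.31 by its brightest probe set, was -0.10 by the mean of its probe sets. The cause was not tested.

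Whether replicate numbers of set 2 pair the arrays cannot be settled from the values. Deviations from group means correlated between -0.14 and 0.22 for same-numbered arrays, and between -0.26 and 0.26 for the others. Between albumin and blocker arrays these were 0.05 to 0.22, against -0.26 to 0.18. Deviations within groups of 2 to 4 arrays are tied to each other, and those of the 2 shams are mirror images. With a replicate block 0 members were called in the 3 comparisons, against 53, 0 and 1 of all genes, with a median of -0.10 and 66 of 79 members below sham for albumin. Under the block Ndufv2 for albumin against sham was 0.012 and Cox6a2 for blockers against sham was -0.054. No paired analysis was possible in set 1 because each agent and time has 1 array. With 2 shams in set 2 and 1 in set 1, small differences of single members are below what these arrays can show.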
